A study of Mus musculus with 8 samples.

Results

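Of the chemokine genes, 10 chosen as epithelial were followed in intestinal epithelial cells (IECs) of mice with and without CD1d. They were Ccl20, Ccl25, Ccl28, Cx3cl1, Cxcl1, Cxcl5, Cxcl9, Cxcl10, Cxcl11 and Cxcl16, taken by name from the 25239 genes of the count table. All 10 were listed, and 9 had enough counts for an adjusted p.

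The samples were bulk RNA-seq libraries of IECs sorted from crypt-enriched preparations of the proximal small intestine, as live EpCAM+ cells without CD45, CD31 or Ter119. There were 4 samples labelled CD1d1/2 KO (CD1d-KO) and 4 labelled C57BL/6Jax (WT), all untreated. CD1d is the molecule that shows lipid antigens to NKT (natural killer T) cells, which mice without it lack in every tissue, so the model is not particular to the epithelium. By the study's methods the mice were 7 to 10 weeks old, of both sexes and matched for sex between genotypes. The samples came from 2 experiments that the labels do not tie to samples. The genotypes were not littermates, and the microbiota may therefore have differed. By the study's methods, the samples of each genotype came from 4 mice.

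Total counts per sample were 23610266 to 31629435. Cd1d1 had 0 to 8 raw counts in the CD1d-KO samples and 50 to 94 in the WT samples. Cd1d2 had 0 to 2 and 3 to 5 raw counts. Y-linked genes had 6235 and 7293 raw counts in CD1d-KO 1 and 2 and at most 1 in each of the other samples, so these libraries were not balanced for sex, although the methods describe matched sexes. The 7 epithelial markers summed to 13485 to 13961 TPM (a level scaled by exon length and library total) in CD1d-KO and 13179 to 14565 TPM in WT. Of these markers 0 passed the test, beside 4.03% of all genes tested, a share at which 0 of 7 is no result about them. Epcam alone did not overlap between genotypes, beside 9.61% of all genes tested. It had 54141 to 58699 normalised counts in CD1d-KO and 52223 to 53483 in WT.

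Chemokines are small secreted or membrane-bound proteins that steer leukocytes through G protein-coupled receptors. In the small intestine some are made continuously by the epithelium and hold lymphocytes there, while others are low at rest and are induced by IFN-γ, IL-17 or NF-κB signals. CCL25 draws CCR9+ T cells and IgA plasma cells to the small intestine, CCL20 draws CCR6+ cells to lymphoid follicles, and CXCL9, CXCL10 and CXCL11 share the receptor CXCR3.

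The promoters of Ccl20, Cxcl9 and Cxcl10 are shown because these 3 genes had the lowest unadjusted p-values of the set, and that of Ccl25 because it had the highest level. Each run is the 250 bases before the RefSeq start on build GRCm38.p6, written 5′ to 3′ on the gene's strand. Capitals mark matches to an NF-κB motif (GGGNNTTNCC), an interferon-stimulated response element (ISRE, GAAANNGAAA) or the letters of a TATA box (TATAAA). All were searched on both strands and at any place in the window.
Ccl20, chr1:83116516-83116765, plus strand: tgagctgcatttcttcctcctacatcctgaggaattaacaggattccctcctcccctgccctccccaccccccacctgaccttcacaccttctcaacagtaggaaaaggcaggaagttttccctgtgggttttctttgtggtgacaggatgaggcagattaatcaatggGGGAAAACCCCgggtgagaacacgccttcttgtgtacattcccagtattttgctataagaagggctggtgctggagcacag
Cxcl9, chr5:92328080-92328329, minus strand: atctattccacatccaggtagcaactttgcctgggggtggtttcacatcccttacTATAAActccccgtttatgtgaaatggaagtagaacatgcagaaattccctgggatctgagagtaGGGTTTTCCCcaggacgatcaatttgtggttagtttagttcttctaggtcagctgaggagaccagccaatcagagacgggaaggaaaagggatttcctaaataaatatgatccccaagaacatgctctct
Cxcl10, chr5:92348890-92349139, minus strand: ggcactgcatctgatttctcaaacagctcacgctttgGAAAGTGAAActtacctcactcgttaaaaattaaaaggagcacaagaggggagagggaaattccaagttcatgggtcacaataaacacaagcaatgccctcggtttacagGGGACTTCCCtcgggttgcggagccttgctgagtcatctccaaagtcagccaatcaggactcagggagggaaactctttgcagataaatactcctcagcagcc
Ccl25, chr8:4349338-4349587, plus strand: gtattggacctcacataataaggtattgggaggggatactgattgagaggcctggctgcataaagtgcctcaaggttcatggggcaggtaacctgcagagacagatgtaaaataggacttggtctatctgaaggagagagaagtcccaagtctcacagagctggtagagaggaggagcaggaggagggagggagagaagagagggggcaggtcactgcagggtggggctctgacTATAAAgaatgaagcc

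An NF-κB match was present in Ccl20, Cxcl9, Cxcl10 and Cxcl1, which is 4 of the 7 members with a RefSeq promoter, and in 4.11% of the 32851 RefSeq promoters searched over the same 250 bases. In Ccl20 there were 2 overlapping matches on the reverse strand, 81 to 71 bases before the start. The single Cxcl9 match began 130 bases before the start and the single Cxcl10 match 103 bases before it. Cxcl1 held 2 matches, beginning 89 and 71 bases before its start. Cxcl10 alone of the 7 held an ISRE match, which began 213 bases before the start and which 2.98% of all promoters held. The IFN-γ-activated site motif TTCNNNGAA was found in 0 of the 7 and in 7.02% of all promoters. At that share, 0 of 7 is no result about these genes. The letters TATAAA began 195 bases before the start in Cxcl9, 16 in Ccl25 and 6 in Cx3cl1, and 12.4% of all promoters held them. Their distance from the start was not a criterion, so such a match need not be a TATA box. A match is a string that fits the stated letters in this window and was not tested as a binding site. Other spellings of a motif were not searched or marked, so a single match need not be the only site. Ccl25 has a further RefSeq start at its 5′ end, whose window held none of the 4 motifs, and the window of Ccl28 held none either. Cxcl5, Cxcl11 and Cxcl16 had no entry.

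Per length, Ccl25 was the most abundant member by far, at 1029.9 ± 75.7 TPM (SD, n = 8 samples). It made up 84.6% to 89.0% of the summed TPM of the 10 genes in every sample. Ccl28 followed at 86.5 ± 9.64 TPM and Cx3cl1 at 63.1 ± 8.01 TPM, and the ranges of these neighbours overlapped over the 8 samples. Below them came Ccl20 (8.62 ± 4.67 TPM), Cxcl16 (3.20 ± 0.505 TPM), Cxcl11 (2.75 ± 0.600 TPM), Cxcl10 (1.05 ± 0.471 TPM), Cxcl9 (0.390 ± 0.429 TPM) and Cxcl1 (0.284 ± 0.335 TPM). Each of these overlapped the next in its range. Cxcl5 was at the bottom, with 2 raw counts in all. The lowest Ccl25 sample stood above the highest Ccl28 sample, and the lowest Cx3cl1 sample above the highest Ccl20 sample. The ranks therefore held 3 tiers, with Ccl25 alone, then Ccl28 and Cx3cl1, then the 7 other members.

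**Figure D1:**
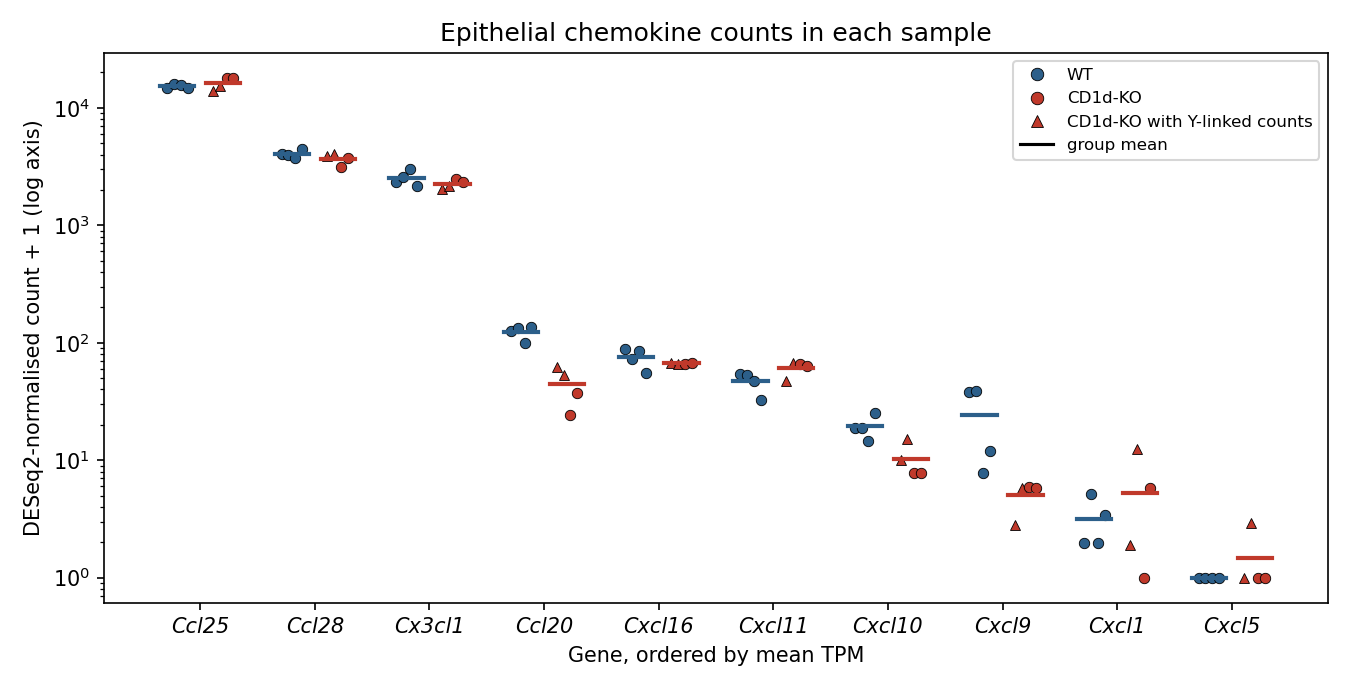
DESeq2-normalised count plus 1 on a log axis for each of the 10 chemokines (x axis, ordered by mean TPM) in each sample. Circles and triangles are samples, triangles the 2 CD1d-KO samples with Y-linked counts, and lines the group means. Ccl20 and Cxcl9 are the 2 genes among the 9 tested whose CD1d-KO and WT samples do not overlap.

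Between genotypes, 2 of the 9 tested members passed an adjusted p of 0.05 (DESeq2, adjusted over all genes tested), Ccl20 and Cxcl9, and both were lower in CD1d-KO. Over all 15446 genes tested, 4.03% passed and 2.38% passed as lower. The groups did not overlap for these same 2 members, against 9.61% of all genes tested. The log2 fold change was negative for 6 tested members and positive for 3, with a median of -0.17 beside 0.00099 for all genes tested. The members were chosen with earlier results of these data known, so the counts are a description of the set. The remaining 7 tested members did not pass. Their intervals differ greatly in width, as the plot of fold changes shows, widest for the low-count gene Cxcl1 and narrowest for the abundant Ccl25.

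**Figure D2:**
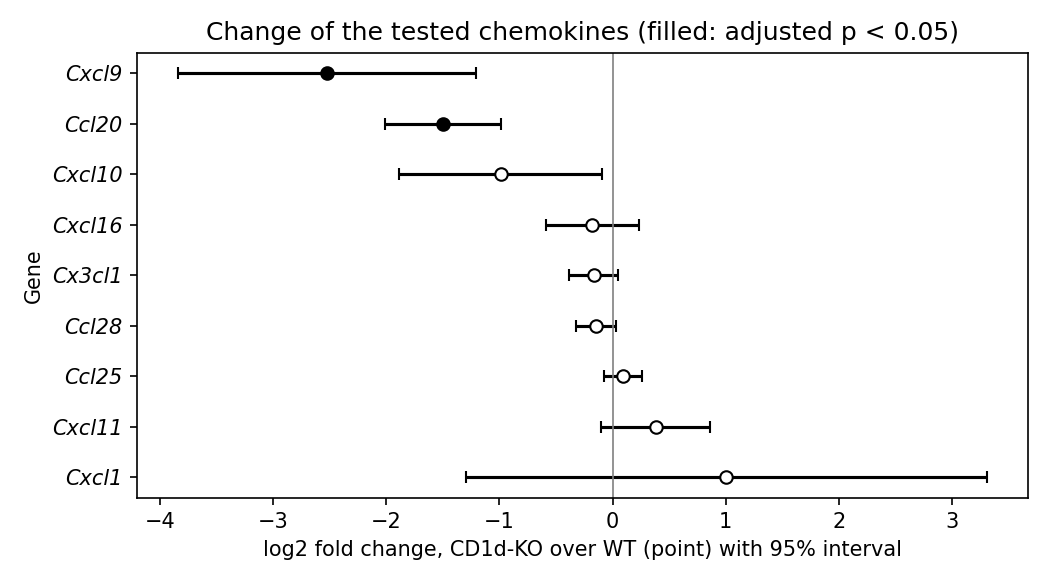
log2 fold change of CD1d-KO over WT (x axis) for the 9 tested chemokines, with bars for the 95% interval (4 samples a genotype) and filled points for an adjusted p under 0.05. Cxcl9 (-2.53) and Ccl20 (-1.50) are the filled points, and the intervals of Ccl25, Ccl28, Cx3cl1, Cxcl16, Cxcl11 and Cxcl1 cross 0.

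Ccl20 (chr1:83116766-83119167, plus strand, mm10), the only known chemokine ligand of CCR6, was lower in every CD1d-KO sample. Its normalised counts were 60.8, 52.4, 23.5 and 36.5 in CD1d-KO 1 to 4, and 125, 132, 98.9 and 134 in WT 1 to 4. The highest CD1d-KO sample lay well under the lowest WT sample, and the spread within CD1d-KO was wider in proportion than within WT. The means were 43.3 ± 16.6 and 123 ± 16.3 (SD, n = 4 each), so WT was 2.83-fold higher. This was a log2 fold change of -1.50 ± 0.26 (SE) with an adjusted p of 2.53e-06 by DESeq2. By edgeR's quasi-likelihood test it was -1.49 with an adjusted p of 0.0141.

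The 2 CD1d-KO samples with Y-linked counts had the higher Ccl20 counts of their group. With these samples left out, the log2 fold change was -2.03 (DESeq2 adjusted p = 1.94e-08). A stomach marker score was also tried as a term. It was the mean over the 10 stomach markers of log2(normalised count + 1), centred on each gene's mean. With it the log2 fold change was -2.001 (DESeq2 adjusted p = 0.0249). Of those markers 9 did not overlap between genotypes, beside 9.61% of all genes tested. The score thus follows genotype, and the SE rose from 0.26 to 0.53. A call lost with this term, here or below, may come from lost precision. Over all 17 other settings tried the log2 fold change of Ccl20 lay between -2.03 and -1.29, and the adjusted p was at most 0.0249. In bulk samples fewer cells that make Ccl20 and less Ccl20 RNA per cell cannot be told apart.

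Ccl20 is best known from the epithelium over lymphoid follicles, so 8 genes of that epithelium and its M cells were listed after the values were seen. Of these 8 genes, 6 were tested, 5 had a negative log2 fold change and 1 passed as lower in CD1d-KO, beside 2.38% of all genes tested. It was Ubd, which encodes the ubiquitin-like protein FAT10, with 12.5 ± 7.26 normalised counts in CD1d-KO and 63.5 ± 30.8 in WT (SD, n = 4 each; log2 fold change -2.36 ± 0.46 (SE), DESeq2 adjusted p = 4.10e-05). With the stomach marker term the value for Ubd was -2.09 (DESeq2 adjusted p = 0.394). The M cell receptor Gp2 was at 0 in all 8 samples and the M cell factor Sox8 had at most 3.81 normalised counts. The 8 genes summed to 128 to 146 TPM in CD1d-KO and 138 to 166 TPM in WT, and the groups overlapped. Their part in the difference in Ccl20 was not tested.

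The 3 genes whose profile over the 8 samples was nearest to that of Ccl20 were Csf1, Gsdmc3 and Nox1, among 11721 genes whose mean over the 8 samples reached 50 normalised counts. Likeness was the root mean square difference of log2(normalised count + 1) after centring each gene on its mean. It was 0.27 for Csf1, 0.35 for Gsdmc3 and 0.37 for Nox1, beside 0.87 for the spread of Ccl20 itself. Csf1, the growth factor of macrophages, had 37.7 ± 15.1 normalised counts in CD1d-KO and 120 ± 24.9 in WT (SD, n = 4 each). Gsdmc3, a gasdermin with close paralogues among which reads may be split, had 566 ± 141 and 1340 ± 267. Nox1, an epithelial NADPH oxidase, had 250 ± 105 and 479 ± 114. Csf1 and Gsdmc3 passed the test (DESeq2 adjusted p = 7.39e-07 and 5.74e-10), and Nox1 did not (0.107). These genes were picked for their likeness over the same samples, so their differences are a description.

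Cxcl9, Cxcl10 and Cxcl11 lie next to each other on chromosome 5 within 42.0 kb (92321331 to 92363296, minus strand, mm10). CXCR3, the receptor of CXCL9 and CXCL10, marks activated T and NK cells. Cxcl9 and Cxcl10 encode the IFN-γ-inducible attractants, and RefSeq classes the C57BL/6J Cxcl11 as a transcribed pseudogene, so its counts are of an RNA without an intact product in that annotation. Art3, on the opposite strand, spans Cxcl10 and Cxcl11 without sharing exonic bases, and had a mean of 4.15 normalised counts.

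Cxcl9 was low in all samples and was lower in CD1d-KO. It had 1.79, 4.76, 4.89 and 4.80 normalised counts in CD1d-KO 1 to 4, and 37.3, 37.7, 6.79 and 11.003 in WT 1 to 4. WT 1 and 2 stood far above WT 3 and 4, and the lowest WT sample was 1.39 times the highest CD1d-KO sample. In raw counts the genotypes held 17 (95% exact Poisson interval 9.90 to 27.2) and 90 (72.4 to 111), and these intervals cover counting error only. DESeq2 gave a log2 fold change of -2.53 ± 0.67 (SE), with an adjusted p of 0.00859.

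The Cxcl9 call rested on the high WT samples and on the tool. Without WT 1 the log2 fold change was -2.20 (DESeq2 adjusted p = 0.0987), and without WT 2 it was -2.19 (0.123). With both Y-positive CD1d-KO samples left out it was -2.26 (DESeq2 adjusted p = 0.134). edgeR's usual filter on low counts left Cxcl9 out. With all genes of at least 10 counts kept, a setting added after the data were seen, edgeR gave -2.50 and an adjusted p of 0.0718. The direction was the same in all 15 other settings that gave a value, between -3.96 and -2.19, and 8 of them passed.

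**Figure D3:**
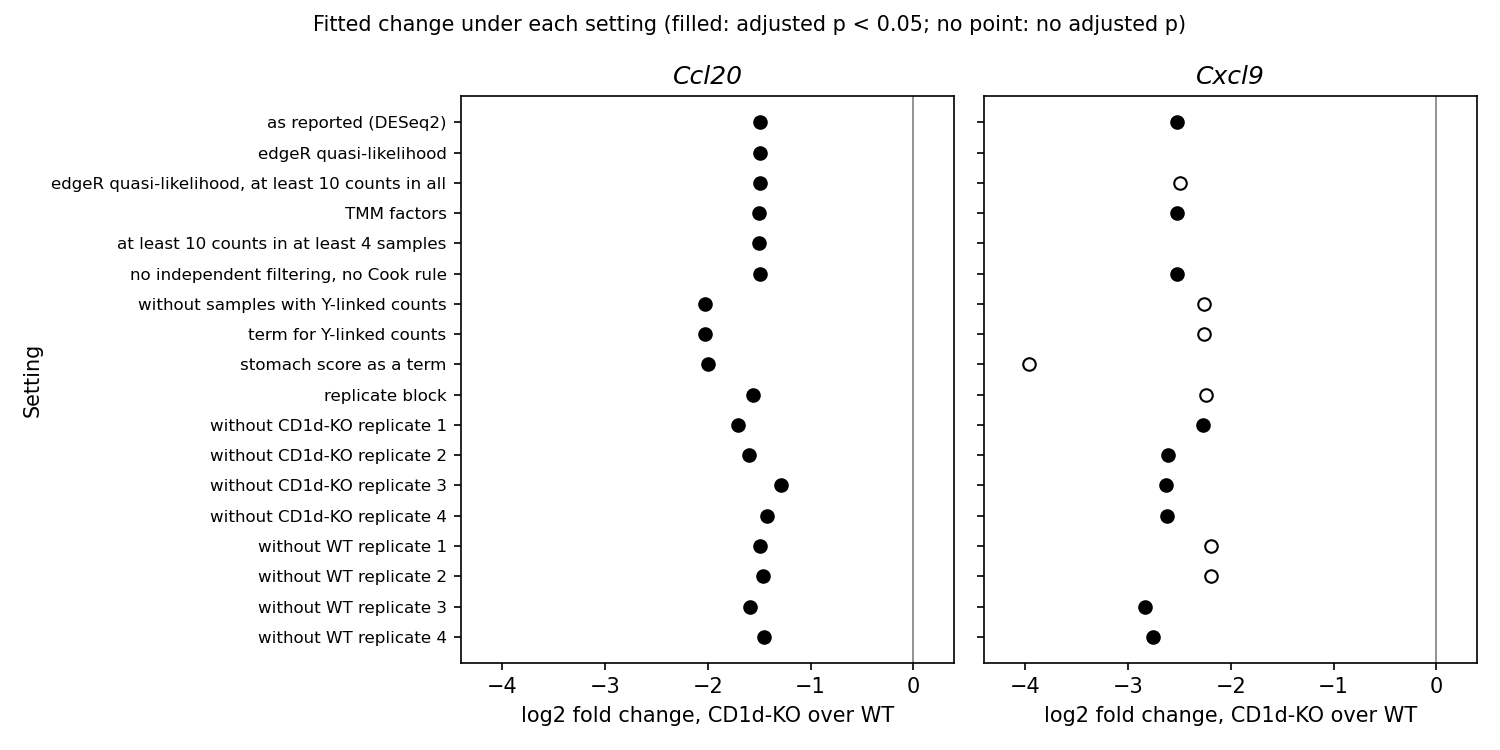
log2 fold change of Ccl20 (left) and Cxcl9 (right), CD1d-KO over WT (x axis), under each setting (y axis). Filled points have an adjusted p under 0.05, and a missing point had no adjusted p. Ccl20 is filled throughout, and Cxcl9 is filled in 8 of its 15 other settings.

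Cxcl10 had 8.94, 14.3, 6.84 and 6.72 normalised counts in CD1d-KO 1 to 4, and 17.7, 17.8, 13.6 and 24.5 in WT 1 to 4. The groups overlapped by 1 sample on each side, CD1d-KO 2 lying just above WT 3. The means were 9.20 ± 3.54 and 18.4 ± 4.50 (SD, n = 4 each). The log2 fold change was -0.99 ± 0.46 (SE), with a 95% interval of -1.89 to -0.09. The unadjusted p was 0.0313 and the DESeq2 adjusted p 0.257, so Cxcl10 did not pass. In the other 17 settings its log2 fold change lay between -1.58 and -0.83, and it passed in 0 of them.

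Cxcl11 had 46.5, 66.7, 65.5 and 62.4 normalised counts in CD1d-KO and 53.0, 52.4, 46.5 and 31.8 in WT. Its highest 3 samples were CD1d-KO samples, and the groups overlapped. Its log2 fold change was 0.38 ± 0.25 (SE), with a 95% interval of -0.10 to 0.87 and a DESeq2 adjusted p of 0.4999.

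Whether Cxcl9, Cxcl10 and Cxcl11 differed in their change was tested on the log2 ratio of each pair in each sample (normalised count + 1). The permutation test was exact and two-sided over the 70 assignments of genotype. The Cxcl9 to Cxcl11 ratio was -3.65 ± 0.30 in CD1d-KO and -1.25 ± 1.01 in WT (SD, n = 4 each), a difference of -2.39 (exact p = 0.0286, adjusted over the 3 pairs 0.0429). The Cxcl10 to Cxcl11 ratio was -2.63 ± 0.50 and -1.28 ± 0.61, a difference of -1.35 (exact p = 0.0286, adjusted 0.0429). In both pairs every CD1d-KO sample lay under every WT sample, and 0.0286 is the smallest p this design can give. Both have Cxcl11 as the second gene, an RNA without an intact product in the RefSeq annotation, so neither compares working ligands. The test was chosen with earlier results of these data known, so its p-values are a description. The Cxcl9 to Cxcl10 ratio was -1.02 ± 0.72 and 0.02 ± 1.18, a difference of -1.04 (exact p = 0.229). That ratio was positive in WT 1 and 2 and negative in the other 6 samples, so a difference between Cxcl9 and Cxcl10 was not detectable with this spread.

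**Figure D4:**
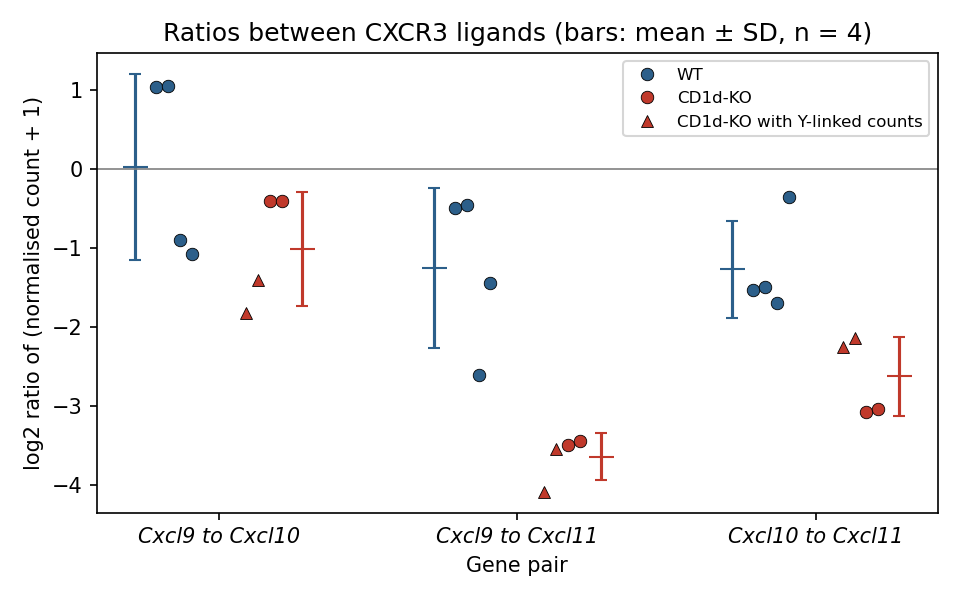
log2 ratio of normalised count plus 1 (y axis) for each pair of Cxcl9, Cxcl10 and the pseudogene Cxcl11 (x axis) in each sample, with mean ± SD (n = 4) beside the points and triangles for the CD1d-KO samples with Y-linked counts. The CD1d-KO samples lie under the WT samples for Cxcl9 to Cxcl11 and Cxcl10 to Cxcl11, and the groups overlap for Cxcl9 to Cxcl10.

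Nearest to Cxcl9 in profile were Pla2g5, Socs3 and B3galt5, at root mean square differences of 0.70, 0.73 and 0.75 on the log2 scale, beside 1.27 for the spread of Cxcl9 itself. The match was thus looser than that of the Ccl20 neighbours. Pla2g5, a secreted phospholipase, had 150 ± 26.7 normalised counts in CD1d-KO and 486 ± 174 in WT (SD, n = 4 each). Socs3, a cytokine-induced inhibitor of STAT signalling, had 417 ± 47.0 and 892 ± 276. B3galt5, a galactosyltransferase, had 74.8 ± 15.3 and 188 ± 47.3. All 3 were highest in WT 1 or WT 2, as was Cxcl9. They were picked for their likeness to Cxcl9 over the same samples, so their shared peak and their differences are a description.

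Some markers of other cell types moved with these samples. The 8 T and NK cell markers summed to 1.50 to 6.38 TPM in CD1d-KO and to 38.8, 14.4, 8.14 and 4.09 TPM in WT 1 to 4. All 8 had a negative log2 fold change and 2 passed, Cd3g and Cd8a. For this list and the marker lists that follow, the share of all genes tested that passed as lower was 2.38%. The 5 B and plasma cell markers summed to 2.15 to 3.64 TPM in CD1d-KO and to 26.4, 9.003, 4.93 and 6.15 TPM in WT 1 to 4. All 5 had a negative log2 fold change and 1 passed, Jchain. WT 1, one of the 2 samples with high Cxcl9, was highest for both lists, and WT 2 was second. The 10 myeloid markers summed to 20.8 to 27.5 TPM and 24.3 to 41.4 TPM, and S100a8 and S100a9 were at 0 outside WT 1. Of 5 tested, 4 were negative and 1 of them, Itgam, passed as lower, while Lyz2 was positive (0.52, DESeq2 adjusted p = 0.649). Itgam (15.7 TPM) and Cd68 (9.33 TPM) were the highest, and Csf1r, Adgre1, Itgax and Tyrobp had means of at most 0.11 TPM. Whether the Itgam counts came from myeloid cells was not tested. The 8 stroma and endothelium markers summed to 0.222 to 0.939 TPM over the 8 samples.

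The 10 stomach markers summed to 2.36 to 58.1 TPM in CD1d-KO and to 131, 140, 1109 and 541 TPM in WT 1 to 4, and 6 of the 10 passed as lower. The stomach genes were highest in WT 3 and 4, which had the lower Cxcl9 counts among WT. Within WT, Ccl20 was lowest in WT 3 (98.9 normalised counts) and had like counts in WT 1, 2 and 4 (125, 132 and 134). The part of these cell types in the differences of Ccl20, Cxcl9 and Cxcl10 was not tested beyond the fit with the stomach term.

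**Figure D5:**
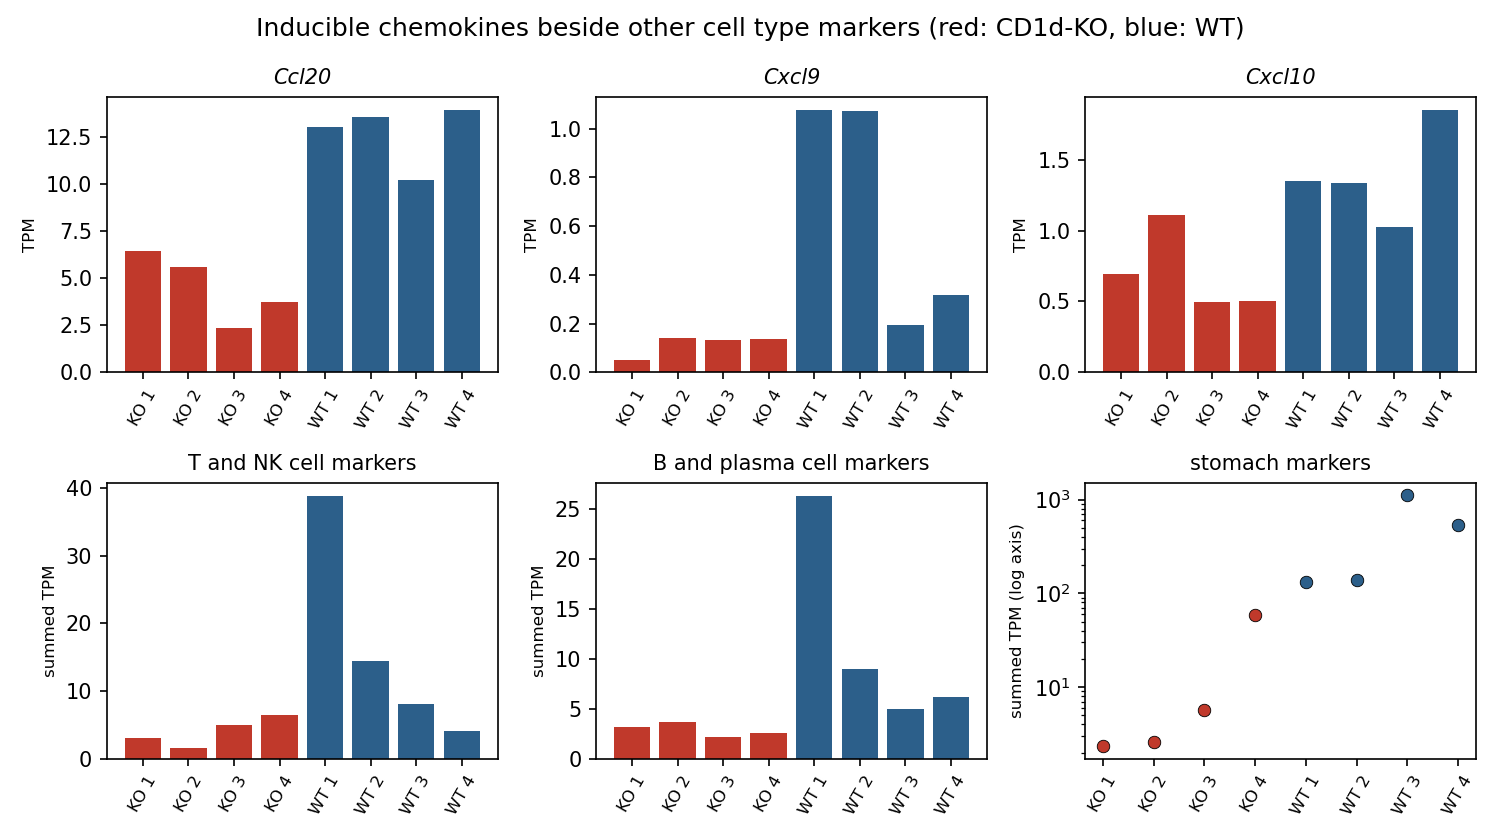
Level per length in each sample (x axis) of Ccl20, Cxcl9 and Cxcl10 in TPM (upper row), and of the summed T and NK cell, B and plasma cell and stomach markers in TPM (lower row, the stomach panel on a log axis), with CD1d-KO in red and WT in blue. Cxcl9 and the T and NK cell markers are highest in WT 1 and 2, and the stomach markers in WT 3 and 4.

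Ccl25 (chr8:4325210-4360020, plus strand, mm10), the ligand of CCR9, had 14010, 15312, 17949 and 17884 normalised counts in CD1d-KO 1 to 4, and 14754, 15869, 15773 and 14843 in WT 1 to 4. The CD1d-KO samples spread on both sides of WT, the 2 with Y-linked counts at 15312 or lower and the 2 without above every WT sample. The log2 fold change was 0.09 ± 0.09 (SE), with a 95% interval of -0.08 to 0.26 and a DESeq2 adjusted p of 0.717. With a term for Y-linked counts it was 0.23 (DESeq2 adjusted p = 0.0416), and with those samples left out it was also 0.23 (0.0608). The Ccl25 call thus depended on how those 2 samples were treated.

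Ccl28, whose product binds CCR10 and CCR3 and draws IgA plasma cells to mucosa, had 3890, 4004, 3126 and 3748 normalised counts in CD1d-KO and 4075, 3968, 3772 and 4488 in WT. CD1d-KO 3 was the lowest sample, and the groups overlapped. Ccl28 had a log2 fold change of -0.14 ± 0.09 (SE), with a 95% interval of -0.32 to 0.03 and a DESeq2 adjusted p of 0.486.

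Cx3cl1, which encodes the membrane-anchored ligand of CX3CR1 on macrophages, had 2017, 2154, 2490 and 2341 normalised counts in CD1d-KO and 2341, 2583, 3037 and 2142 in WT. WT 3 was the highest sample and the rest overlapped. Cx3cl1 had a log2 fold change of -0.17 ± 0.11 (SE), with a 95% interval of -0.38 to 0.05 and a DESeq2 adjusted p of 0.515. For Ccl25, Ccl28 and Cx3cl1 the intervals are narrow and cross 0, which does not show that the genotypes were alike.

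Cxcl16, the membrane-anchored ligand of CXCR6, a receptor that NKT cells carry, had 66.2, 64.8, 65.5 and 66.2 normalised counts in CD1d-KO and 87.4, 71.3, 83.4 and 53.8 in WT. The 4 CD1d-KO samples were nearly equal, and 3 of the 4 WT samples lay above them and 1 below. For Cxcl16 the log2 fold change was -0.18 ± 0.21 (SE), with a 95% interval of -0.59 to 0.23 and a DESeq2 adjusted p of 0.792. Cxcl16 shares 552 exonic bases with Zmynd15 on the other strand, and counting did not use strand, so reads of the shared stretch could not be assigned with certainty.

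The neutrophil attractants were near the limit of detection. Cxcl1, a CXCR2 ligand, had 1, 12, 0 and 5 raw counts in CD1d-KO and 1, 4, 1 and 2 in WT. Most of the CD1d-KO counts were in CD1d-KO 2. Cxcl1 came out at 1.01 ± 1.18 (log2 fold change ± SE) with an adjusted p of 0.793 by DESeq2, and without CD1d-KO 2 it was -0.17, so its direction rested on that sample. Cxcl5, another CXCR2 ligand, had 2 raw counts in CD1d-KO 2 and 0 in the other 7 samples, so no fold change is given. For these 2 genes a difference was not detectable at this depth.

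Of the 13 receptors of these chemokines, decoy receptors included, 5 were tested and 0 passed, beside 4.03% of all genes. Their median log2 fold change was -0.10. Ackr4, a scavenger receptor for CCL25, had the highest level at 2.98 TPM, with a log2 fold change of 0.10 (DESeq2 adjusted p = 0.936). Ccr10 followed at 0.873 TPM with -0.10 (0.958). Cxcr3 had counts in 2 samples only, at most 1.96 normalised counts, and Cxcr2 was at 0 throughout. All 3 proteases that shed or trim chemokines were tested and 0 passed, beside the same 4.03%. At that share, 0 of 3 proteases or 0 of 5 receptors is no result about these genes. Adam10, a sheddase of CX3CL1 and CXCL16, had 115 TPM and a log2 fold change of 0.0018 (DESeq2 adjusted p = 0.997). Dpp4, which trims the N-terminus of CXCR3 ligands, had 99.5 TPM and 0.13 (0.593).

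Of the 7 genes of IFN-γ signalling, 1 passed as higher and 1 as lower, beside 4.03% of all genes passing in either direction. Their median log2 fold change was 0.04. Of the 7, 2 did not overlap between genotypes, beside 9.61% of all genes tested. Irf1, a transcription factor induced by IFN-γ, had 4986, 5510, 5847 and 5919 normalised counts in CD1d-KO and 7368, 7343, 6656 and 6707 in WT. The groups did not overlap, WT 1 and 2 were again highest, and the log2 fold change was -0.33 ± 0.07 (SE, DESeq2 adjusted p = 0.000465). Ifngr1, the ligand-binding receptor chain, had 6424, 6760, 5988 and 5859 normalised counts in CD1d-KO and 5413, 5403, 5108 and 5039 in WT, without overlap. Its log2 fold change was 0.26 ± 0.06 (SE, DESeq2 adjusted p = 0.00462), and it was 0.25 by edgeR (adjusted p = 0.0644). Without the samples with Y-linked counts neither passed, at -0.25 for Irf1 (DESeq2 adjusted p = 0.0647) and 0.18 for Ifngr1 (0.288). With the stomach marker term Ifngr1 was at 0.08 (DESeq2 adjusted p = 0.904), and Irf1 kept its size at -0.33 but did not pass (0.437).

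Of the 13 genes of IL-17 and NF-κB signalling, 3 passed, all lower, beside 2.38% of all genes tested. Their median log2 fold change was -0.14 beside 0.00099 for all genes. Nfkb2, which encodes the p100 subunit precursor, had 973 ± 29.7 normalised counts in CD1d-KO and 1264 ± 101 in WT (SD, n = 4 each; log2 fold change -0.38 ± 0.08 (SE), DESeq2 adjusted p = 0.000137). Tnfaip3, an NF-κB target that restrains the pathway, had 879 ± 79.1 and 1131 ± 81 (-0.36 ± 0.09, 0.00323). Nfkbia, an inhibitor of NF-κB that is also its target, had 2202 ± 309 and 2790.0 ± 139 (-0.34 ± 0.10, 0.019). Of the 13 genes, 2 did not overlap between genotypes, Nfkb2 and Tnfaip3, beside 9.61% of all genes tested. Nfkbia did overlap. With the stomach marker term the log2 fold changes of Nfkb2 and Tnfaip3 were of like size, -0.40 and -0.37. They no longer passed (DESeq2 adjusted p = 0.361 and 0.505). That term follows genotype, and with it 103 of all genes passed, against 622 without it. Nfkbia still passed with that term (-0.69, 0.00456) and did not pass by edgeR (-0.34, adjusted p = 0.0864). It also did not pass when CD1d-KO 3, CD1d-KO 4, WT 1, WT 2 or WT 4 was left out singly (DESeq2 adjusted p = 0.0544 to 0.104). With CD1d-KO 1, CD1d-KO 2 or WT 3 left out Nfkbia passed. Without the samples with Y-linked counts Tnfaip3 was at -0.34 and did not pass (DESeq2 adjusted p = 0.113). The 4 intestinal transcription factors, which set small intestinal identity, did not pass. With 4.03% of all genes tested passing, 0 of 4 is no result about them. Their log2 fold changes included -0.01 for Hnf4a (695 TPM) and -0.02 for Cdx2 (293 TPM).

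Among 27 other chemokine genes, 12 had no count in any sample, 6 were tested and 0 passed, beside 4.03% of all genes tested, a share at which none of 6 is no result about these genes. The median log2 fold change of the 6 was -0.20. Ccl6 and Ccl9, both CCR1 ligands, were abundant, at 215 and 34.0 TPM, with log2 fold changes of -0.24 ± 0.32 and -0.16 ± 0.18 (SE, DESeq2 adjusted p = 0.825 and 0.771). By level Ccl6 came after Ccl25 and before Ccl28, and Ccl9 came after Cx3cl1 and before Ccl20. Ccl9 also stands in the list of the epithelium over follicles. Ccl5, an attractant made largely by T and NK cells and named after its values were seen, had 0, 2.86, 8.80 and 7.68 normalised counts in CD1d-KO and 94.2, 41.9, 6.79 and 3.67 in WT. WT 1 and 2 were the high samples, as for Cxcl9, and Ccl5 did not pass (log2 fold change -2.93 ± 1.28, SE, DESeq2 adjusted p = 0.213).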

How the data were processed

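RNA of sorted IECs from 4 CD1d-KO and 4 WT samples was sequenced from poly-A libraries. The authors deposited raw counts of read pairs per gene, made with featureCounts (version 1.6.4 in the file header, exons joined by gene, primary alignments, strand not used) against an mm10 RefSeq annotation. The authors' processing notes name HISAT2 and the build GRCm39, whereas the coordinates in the table are mm10, and these are printed. The table also gives the summed exon length, from which TPM was computed here.

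Samples were grouped by the genotype in the labels. The members, gene lists and tests were chosen with earlier results of these data known. Genotypes were compared with DESeq2 1.42.0 (R 4.3.3; Wald test, genotype only, Benjamini-Hochberg adjustment, threshold 0.05), the tool named by the study. Its filter gave no adjusted p to 3638 genes, those with a mean normalised count under 2.41. Intervals are 1.96 SE. When the test was checked on simulated data, DESeq2 made more false calls than its threshold allows and edgeR 4.0.16 stayed near it. The edgeR result is therefore given beside each member that passed.

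Ratios among Cxcl9, Cxcl10 and Cxcl11 were tested by exact permutation (scipy 1.17.1, pseudocount 1). Named genes were all members, every gene of the pathway lists that passed (or the 2 of a list with the highest TPM where 0 did) and the 3 nearest profiles of each member that passed. Ccl5, Ubd and the single cell type markers were named after their values were seen. Alternatives were edgeR, TMM factors, other filters, terms for Y-linked counts, stomach markers or replicate number, and leaving out samples. Samples of 1 genotype differed by more than sampling noise (chi-square per degree of freedom 9.28 to 35.1). One further B cell marker is not reported here. Promoter sequences came from RefSeq (GRCm38.p6), and protein sequences were not used here. At 23610266 to 31629435 counts a sample, a count of 0 allows up to 3 counts, for counting error only.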

Additional observations from a re-analysis of the deposited data

Results flagged for a closer look

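For each of the 10 members and each genotype, the lowest and highest of the 4 samples were set against the rest of the group. In 2 of the 20 groups 1 sample lay apart, and chance alone marks about 1 in 20 groups. Cxcl9 in CD1d-KO 1 was 1.79 normalised counts (2 raw counts), below 4.76 to 4.89 in the other CD1d-KO samples. Cxcl5 in CD1d-KO 2 was 1.90 normalised counts (2 raw counts), with 0 in the other 3. Both rest on 2 counts.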

How the results depend on the processing

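Ccl20 passed in all 17 other settings. Cxcl9 kept its direction and passed in 8 of 15, failing in edgeR with all genes of at least 10 counts (-2.50, adjusted p = 0.0718), with the replicate block (-2.24, 0.0722), the Y-linked term (-2.26, 0.14), the stomach term (-3.96, 0.221), and without WT 1, WT 2 or the Y-linked samples. The count of members that passed, 2, was 1 with edgeR under either filter, with at least 10 counts in at least 4 samples (which left Cxcl9 out), without the Y-linked samples, with the stomach term and with the replicate block, and 1 to 2 when single samples were left out. The pathway lists held 5 genes that passed, 3 with edgeR under either filter, without the Y-linked samples and with the Y-linked term, 1 with the stomach term, 8 with the replicate block, and 4 to 6 when single samples were left out. Over all genes, 622 passed, against 228 and 236 with edgeR, 372 without the Y-linked samples, 103 with the stomach term and 323 to 646 when single samples were left out.

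The sign of Cx3cl1 turned with the stomach term (0.052), and that of Cxcl1 without CD1d-KO 2, within a range of -0.17 to 1.57 when single samples were left out. The cause was not tested. Ccl25 passed with the Y-linked term (0.23). The Cxcl9 to Cxcl11 difference was -2.22 without the Y-linked samples and -2.39 by sign flips within the replicate block, and -2.85 to -2.13 when single samples were left out. The Cxcl10 to Cxcl11 difference was -1.78, -1.35 and -1.52 to -1.05 in the same order. With pseudocounts of 0.5 and 5 the Cxcl9 to Cxcl11 difference was -2.52 and -1.80 and the Cxcl10 to Cxcl11 difference -1.40 and -1.10, so their size depends on the pseudocount, and both passed. The designs with fewer samples or with sign flips cannot pass the threshold, since their smallest exact p-values are 0.133, 0.125 and 0.0571.

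Replicate numbers were not taken to pair the samples in the main fit. The correlations of same-numbered deviations over 11721 genes were 0.34, -0.08, 0.27 and -0.09. The same-numbered WT sample was the best match of CD1d-KO 1 and 3 and not of CD1d-KO 2 and 4, which does not settle whether the numbers pair. Cxcl1 and Cxcl5 are limited by depth.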
